A study of Homo sapiens with 23 samples.

Results

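The 4 loci described here are MYC, LMNB2, MCM4 and TOP1, human genes at which replication origins were mapped in earlier work by locus-specific methods. Each locus was the gene on genome build hg19 with 10 kb added on each side, and its members were all peaks that shared at least 1 bp with it in 21 deposited lists. That gave 213 peaks of 1743298. MYC lies at chr8:128748315-128753680 on the plus strand, and its locus spans 25.4 kb. LMNB2 lies at chr19:2428163-2456994 on the minus strand, and its locus spans 48.8 kb. MCM4 lies at chr8:48872763-48890719 on the plus strand, and its locus spans 38.0 kb. TOP1 lies at chr20:39657462-39753126 on the plus strand, and its locus spans 116 kb. The loci are named in every comparison, and positions below are distances from the gene's 5′ end along the direction of transcription.

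Lists of 2 kinds were made from HCT116, an established colon carcinoma line, and K562, an established chronic myelogenous leukemia line. Nascent strands are short, newly replicated DNA that resists lambda exonuclease and marks where replication started. The HCT116 nascent-strand lists came from a clone depleted of SIRT1, from the same kind of clone with the T530A mutant of SIRT1 put back (T530A rescue), from wild-type cells held for 24 h in 200 nM aphidicolin, which blocks replicative DNA polymerases, then grown without it for 24 h, and from a depleted clone with wild-type SIRT1 put back (wild-type rescue). All SIRT1 groups are therefore depleted clones, and the aphidicolin list is the only HCT116 nascent-strand list here from cells with their own SIRT1. No nascent-strand list of untreated wild-type HCT116 was analysed. Each list represents 1 clone or culture. The K562 nascent strands came from early, middle and late S fractions. In untreated wild-type HCT116, ChIP lists were made for T530-phosphorylated SIRT1 (pSIRT1), S139-phosphorylated MCM2 (pMCM2) and histone H4 acetylated on lysine 16 (H4K16ac). In K562, elutriation gave 5 fractions (G1, then early, middle and late S, then G2), in which both pSIRT1 and pMCM2 were mapped, and pSIRT1 was also mapped in unfractionated cells. Every group had 1 library of 23 in all, so there were no replicates, no p-value was computed and every difference is one between libraries. The 2 libraries of sheared genomic DNA, used as controls for peak calling per the labels, are not analysed here.

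Replication origins are licensed when the origin recognition complex loads the MCM helicase, of which MCM2 and MCM4 are subunits, and only some licensed sites fire in a given cell cycle. The LMNB2 origin, in the gene for lamin B2 of the nuclear envelope, is known from the 3′ end of that gene next to the promoter of TIMM13, a mitochondrial import chaperone. The MYC origin is known from the region around and upstream of the promoter of this transcription factor gene, the MCM4 origin from the promoter region that MCM4 shares with the DNA repair kinase gene PRKDC, and the TOP1 origin from near the promoter of this topoisomerase gene. SIRT1 is a deacetylase that can remove H4K16ac, and phosphorylation at T530 is a known modification of it.

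Sequences are shown for the starts of LMNB2, TIMM13 and TOP1. The TIMM13 and TOP1 starts lie near known origins, while the LMNB2 start is at the opposite end of its gene from the known origin. No peak below is placed against the TIMM13 start, whose hg19 position was not used. They are the 300 bases around each start in RefSeq (GRCh38.p14), with runs of GGG or CCC and longer in capitals, because runs of G on either strand are common at human origins. The LMNB2 start is chr19:2456910-2457209 (minus strand), the TIMM13 start is chr19:2427537-2427836 (minus strand) and the TOP1 start is chr20:41028572-41028871 (plus strand), all in GRCh38 coordinates.
LMNB2: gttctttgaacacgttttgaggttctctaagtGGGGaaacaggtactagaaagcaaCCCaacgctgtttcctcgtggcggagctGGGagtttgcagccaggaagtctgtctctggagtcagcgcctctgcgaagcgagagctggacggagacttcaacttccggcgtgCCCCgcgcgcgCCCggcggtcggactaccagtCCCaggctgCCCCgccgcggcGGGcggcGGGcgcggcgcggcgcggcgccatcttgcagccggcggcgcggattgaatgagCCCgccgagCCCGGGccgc
TIMM13: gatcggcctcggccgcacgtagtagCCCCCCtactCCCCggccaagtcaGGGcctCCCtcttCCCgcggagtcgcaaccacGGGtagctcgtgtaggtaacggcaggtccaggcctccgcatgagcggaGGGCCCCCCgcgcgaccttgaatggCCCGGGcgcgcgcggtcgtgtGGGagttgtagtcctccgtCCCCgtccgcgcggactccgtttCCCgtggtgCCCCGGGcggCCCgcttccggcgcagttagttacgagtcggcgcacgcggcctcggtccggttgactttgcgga
TOP1: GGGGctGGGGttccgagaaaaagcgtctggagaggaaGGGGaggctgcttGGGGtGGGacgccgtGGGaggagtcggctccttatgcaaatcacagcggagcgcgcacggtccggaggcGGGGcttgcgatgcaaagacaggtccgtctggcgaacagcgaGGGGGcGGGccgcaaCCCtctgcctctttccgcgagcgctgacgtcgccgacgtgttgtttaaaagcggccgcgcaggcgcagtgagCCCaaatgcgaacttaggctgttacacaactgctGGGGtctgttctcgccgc
GC content was 67.7% for LMNB2, 71.0% for TIMM13 and 64.7% for TOP1, against a median of 58.7% over 35116 promoters of the table. CpG was counted 38 times in the LMNB2 sequence, 42 times in TIMM13 and 31 times in TOP1, against a median of 14. LMNB2 and TOP1 had 12 runs of GGG or CCC each and TIMM13 had 16, against a median of 13, and 99.5% of promoters held at least 1 such run. Adjoining runs on opposite strands were counted separately. A motif of 4 runs of GGG, or 4 of CCC, with 1 to 7 bases between runs was in none of the 3 sequences and in 25% of promoters. The starts were thus rich in CpG, at percentiles 90.7, 94.6 and 80.2 of the table for LMNB2, TIMM13 and TOP1, and close to the median in runs except for TIMM13.

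The lists held between 24416 and 230956 peaks. In 18 lists the value of a peak was a number of reads, and these summed to between 585185 (K562 pMCM2 in G1) and 20025631 (SIRT1-depleted nascent strands) per list. This sum is not the depth of the library, which is unknown. The other 3 lists (H4K16ac, and K562 pSIRT1 in middle S and G2) held a score instead and enter ranks only. The H4K16ac score follows the q value of the authors' caller, so its percentiles rank peaks by q and not by reads. The weakest peak of a nascent-strand list had between 19 and 31 reads, so a locus without a peak can still hold weaker signal. The percentile of a peak is the percentage of peaks of its own list with fewer reads, with ties placed in the middle. Percentiles of lists of different length show no change between groups. The amount of SIRT1 in the clones cannot be checked from peak lists.

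TOP1 had a peak in 20 of 21 lists, LMNB2 in 17, MYC in 15 and MCM4 in 12. The longest gene thus had a peak most often, and a wide locus holds a peak more often by its width alone. Of genome windows as wide as TOP1 with a peak of any list, 35.0 to 93.5% held a peak of a given list. That range was 22.8 to 80.0% at the width of LMNB2, 16.7 to 70.6% at MYC and 20.2 to 75.4% at MCM4. The share of windows with a peak in as many of the 21 lists was not computed. The top peak at LMNB2 lay above the 90th percentile of its own list in 12 of 17 lists, at MYC in 5 of 15, at MCM4 in 3 of 12 and at TOP1 in 2 of 20. Over the lists with a peak, the percentile of the top peak ranged from 12.6 to 97.3 at LMNB2 (median 93.6), from 3.25 to 98.9 at MYC (median 87.9), from 35.4 to 94.7 at TOP1 (median 74.9) and from 25.9 to 97.6 at MCM4 (median 50.1). A locus of many peaks has more chances of a high top peak, and the loci held 74 peaks at LMNB2, 36 at MYC, 82 at TOP1 and 21 at MCM4. When only the gene was used without the flanks, the median at TOP1 was 47.0. Ranked by reads per kb in place of reads, the medians were 80.5 at LMNB2 and 83.3 at TOP1.

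**Figure D1:**
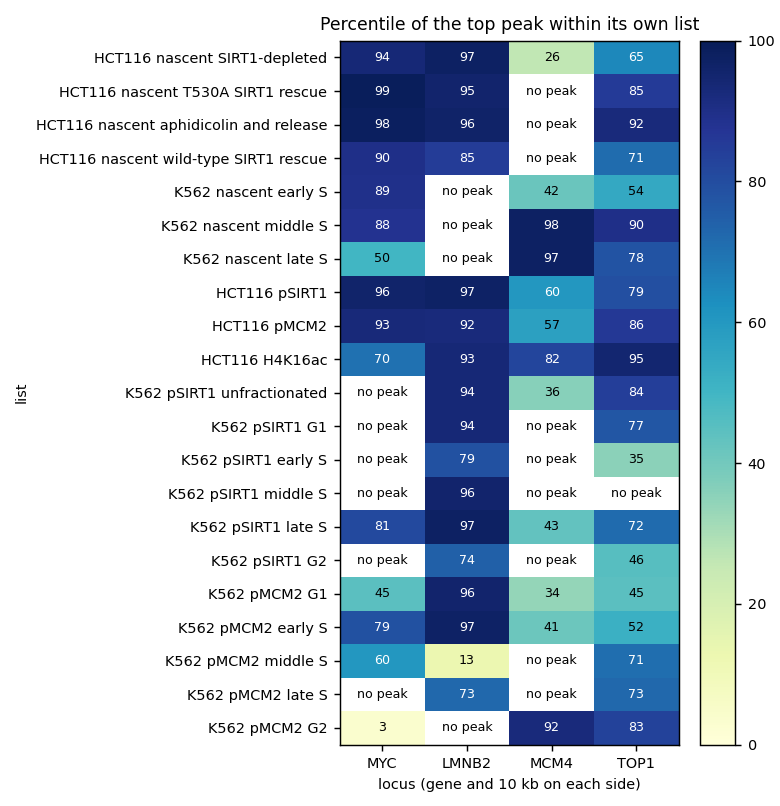
Percentile, among all peaks of its own list, of the peak with the most reads (or the highest score) at each locus, with lists down the page and the 4 loci across. Dark cells are high ranks and white cells have no peak: LMNB2 is dark in the HCT116 and most K562 ChIP lists and white in all 3 K562 nascent-strand lists.

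Nascent-strand peaks covered the 5′ end of MYC in all 4 HCT116 lists and in none of the 3 K562 lists. In HCT116 the peak with the most reads was the one over the gene start in every list. It had 467 reads over 6600 bp in the SIRT1-depleted list (chr8:128745201-128751800, percentile 93.7). In the T530A rescue it had 785 reads over 17600 bp (chr8:128737801-128755400, percentile 98.9), reaching 10.5 kb upstream of the start. The aphidicolin list gave 529 reads over 11400 bp (chr8:128740401-128751800, percentile 98.2). The wild-type rescue gave 365 reads over 6400 bp (chr8:128745401-128751800, percentile 89.7). These 4 peaks all covered the stretch from 2.91 kb upstream to 3.48 kb downstream of the start, and the T530A and aphidicolin peaks extended farther upstream than the peaks of the depleted and wild-type rescue lists. All 4 HCT116 lists had a further peak that began 13.1 to 14.7 kb downstream of the start, with 280 reads in the depleted list, 284 in the T530A rescue, 357 after aphidicolin and 243 in the wild-type rescue. Of windows as wide as the MYC locus that held a peak of any list, 33.6% had a peak in all 4 HCT116 nascent-strand lists, so presence there was common.

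In K562 the nascent-strand peaks at MYC sat downstream of the gene. The top peak of the early S list had 131 reads (chr8:128762001-128766200, percentile 89.4). That of middle S had 160 reads (chr8:128762601-128765600, percentile 87.9) and that of late S had 62 reads (chr8:128762401-128763800, percentile 49.8). All 3 began 13.7 to 14.3 kb from the 5′ end, the same stretch as the downstream peak of HCT116. The K562 peak nearest to the 5′ end was 10.3 kb away for early S, 12.3 kb for middle S and 5.49 kb for late S. A peak in all 3 K562 lists occurred in 29.7% of windows of this width. The 1 Mb around the locus held 57, 58 and 67 K562 nascent-strand peaks in early, middle and late S, against a median of 23, 20 and 25 per 1 Mb window, so the missing peak over the start stood in a region rich in such peaks.

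The place at MYC that most lists shared was the downstream one, at the edge of the locus, which ends at chr8:128763680. Of the 3000 bp of the K562 middle S peak there, only 1080 bp lay inside the locus. With the gene alone, MYC had a peak in 10 of 21 lists, against 15 with the flanks. The 200 bp at chr8:128763201-128763400, 14.9 to 15.1 kb from the 5′ end, lay inside a peak of 13 lists, among them all 7 nascent-strand lists and all 3 HCT116 ChIP lists. A stretch inside the gene, chr8:128750401-128751799, lay inside a peak of 8 lists, namely the 4 HCT116 nascent-strand lists, HCT116 pSIRT1 and H4K16ac, and K562 pMCM2 in G1 and early S. The K562 pMCM2 peaks there began 2.09 kb (G1) and 1.89 kb (early S) downstream of the start, so in K562 this ChIP signal stood in the gene without a nascent-strand peak at the same place.

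The ChIP marks at MYC differed between the cell lines. In HCT116 a pSIRT1 peak of 249 reads covered the gene start (chr8:128746001-128751799, percentile 96.0), and an H4K16ac peak of score 47 covered it too (chr8:128747185-128749212, percentile 65.7). HCT116 pMCM2 had its top peak across the gene's 3′ end, with 214 reads at 4.49 to 5.89 kb (chr8:128752801-128754200, percentile 92.6). All 3 HCT116 ChIP lists had a peak at MYC, as did 39.4% of windows. In K562, pSIRT1 had a peak at MYC in late S alone of 6 lists, with 156 reads in 3 peaks. The pSIRT1 peak nearest to the MYC 5′ end was 15.7 kb away for unfractionated cells. It was 37.1 kb away for G1 and 37.9 kb for G2, while the S fractions ranged from 4.12 kb (late) through 64.9 kb (middle) to 78.5 kb (early). A peak in at most 1 of 6 K562 pSIRT1 lists was found in 46.0% of windows, so this sparseness was ordinary. K562 pMCM2 had a peak in 4 of 5 lists, with 15 reads for G1, 43 for early S, 30 for middle S and 16 for G2 and no peak for late S, and 15.5% of windows had a peak in at least 4 of 5.

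LMNB2 had nascent strands at its 3′ end in HCT116 and no nascent-strand peak in K562, with dense pSIRT1 in both lines. The top nascent-strand peak of each HCT116 list lay at the end of the gene where the origin is known. The SIRT1-depleted list had 744 reads over 13000 bp (chr19:2425801-2438800, percentile 97.3). The T530A rescue had 410 reads over 8800 bp (chr19:2426001-2434800, percentile 95.4). After aphidicolin there were 389 reads over 8600 bp (chr19:2426001-2434600, percentile 96.3). The wild-type rescue had 299 reads over 6600 bp (chr19:2428601-2435200, percentile 84.9). The first 3 of these peaks covered the 3′ end of LMNB2 and ran past it, to 31.0 to 31.2 kb from the 5′ end of a gene 28.8 kb long, whereas the wild-type rescue peak stopped 438 bp short of it, inside the gene. Peaks in all 4 HCT116 lists occurred in 48.6% of windows as wide as the LMNB2 locus.

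At the other end of LMNB2, a nascent-strand peak covered the 5′ end in the SIRT1-depleted list (256 reads, percentile 83.3) and in the T530A rescue (177 reads, percentile 77.4). The aphidicolin list had its nearest peak 7.79 kb from the 5′ end and the wild-type rescue 3.39 kb from it. The SIRT1-depleted list had 5 peaks at LMNB2, the T530A rescue 4, the aphidicolin list 2 and the wild-type rescue 2.

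No K562 fraction had a nascent-strand peak at LMNB2, and 21.3% of windows had none. The nearest one was 133 kb (early S), 172 kb (middle S) and 98.6 kb (late S) from the 5′ end. From the 3′ end the nearest one was at least 69.8 kb away, in late S. The sparseness reached beyond the gene. In the 1 Mb around the locus the HCT116 lists had 76 (SIRT1-depleted), 52 (T530A rescue), 44 (aphidicolin) and 36 (wild-type rescue) nascent-strand peaks, at percentiles 68.9 to 89.5 of 1 Mb windows. K562 early, middle and late S had 6, 9 and 8 there, at percentiles 15.0, 26.3 and 15.8. The HCT116 nascent-strand lists hold more reads in peaks (13703233 to 20025631) than the K562 ones (5874139 to 6815432), and the part of depth and of copy number in the missing K562 peaks was not tested.

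HCT116 pSIRT1 had 9 peaks with 906 reads at LMNB2, the top one with 290 reads inside the gene (chr19:2440801-2446599, percentile 97.1). All 6 K562 pSIRT1 lists had a peak at LMNB2, which 15.0% of windows had. Reads at the locus summed to 284 in unfractionated cells, 310 in G1, 128 in early S and 1166 in late S. The top peak ranked at percentile 93.6 in unfractionated cells, 93.5 in G1, 78.6 in early S, and 97.3 in late S. By score it ranked at 95.6 in middle S (score 325) and 74.3 in G2 (score 186). In these K562 lists the 1 Mb around LMNB2 held between 42 and 150 pSIRT1 peaks, at percentiles 97.3 to 99.6 of 1 Mb windows. HCT116 pSIRT1 had 149 peaks there, at percentile 98.8. In both lines the pSIRT1 density was thus a property of the region and not of the gene alone.

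The other ChIP marks were present in HCT116 too, where a peak in all 3 ChIP lists occurred in 52.3% of windows. HCT116 pMCM2 had 6 peaks with 479 reads, and its top peak of 209 reads lay 23.6 to 24.6 kb from the 5′ end (percentile 92.4), within all 4 of the HCT116 nascent-strand peaks near the 3′ end. H4K16ac had a peak of 20248 bp over most of the gene (chr19:2428403-2448650, score 128, percentile 93.5), which the authors' caller gave a fold enrichment of 5.89. K562 pMCM2 had a peak in 4 of 5 lists, which 28.3% of windows reached, with 138 reads for G1, 80 for early S, 16 for middle S and 21 for late S and no peak for G2. In G1 and early S it had a peak on the TIMM13 side of the gene, with 43 and 67 reads, whose near edge was 563 and 363 bp beyond the LMNB2 3′ end.

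The most widely shared place at LMNB2 was inside the gene and not at its 3′ end. The stretch chr19:2445201-2446599, 10.4 to 11.8 kb from the 5′ end, lay inside a peak of 13 lists, among them all 6 K562 pSIRT1 lists, all 3 HCT116 ChIP lists and 3 of 4 HCT116 nascent-strand lists. A second place at 22.6 to 22.8 kb (chr19:2434201-2434400) lay inside a peak of 12 lists, including all 4 HCT116 nascent-strand lists and all 6 K562 pSIRT1 lists. Just beyond the 3′ end, chr19:2426001-2426800 lay inside a peak of 10 lists.

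**Figure D2:**
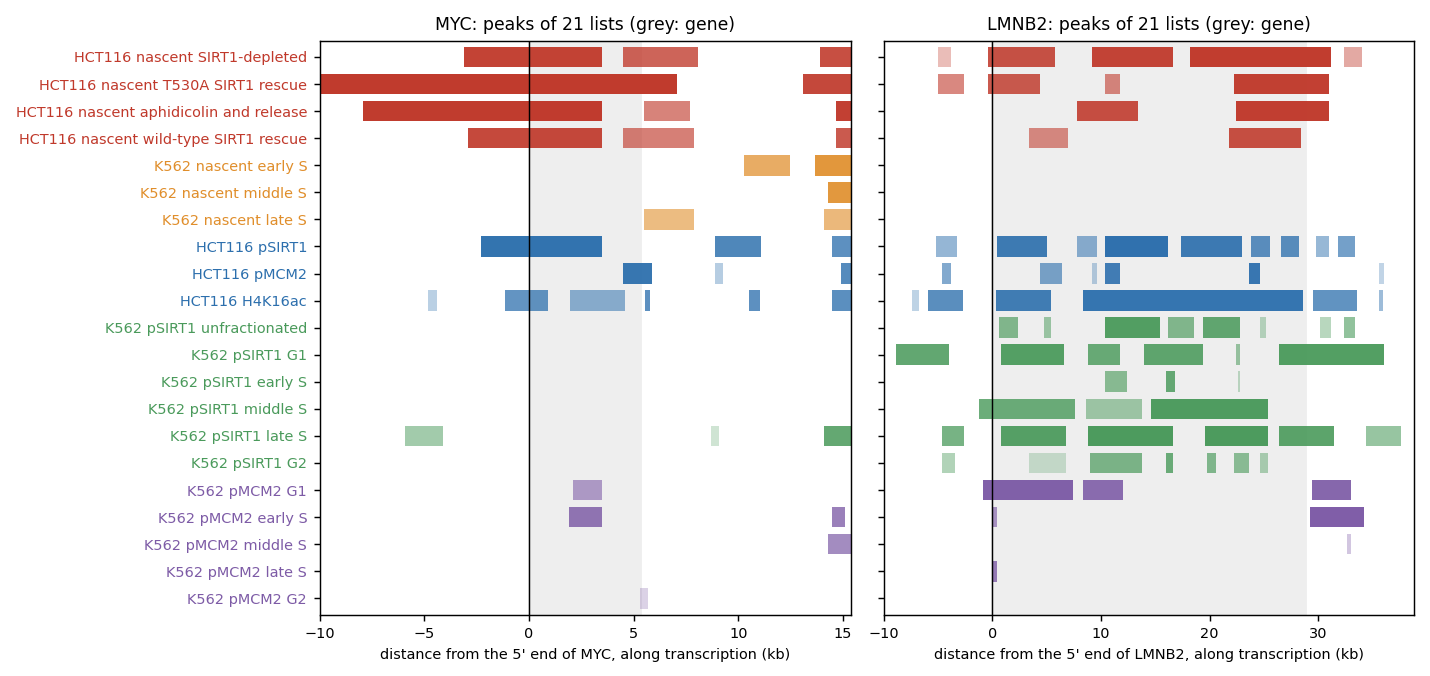
Peaks of the 21 lists at MYC (left) and LMNB2 (right), each bar 1 peak at its distance in kb from the gene's 5′ end along transcription, with the gene in grey and darker bars for higher percentiles in the list. HCT116 nascent-strand peaks cover the MYC start in all 4 lists and reach the LMNB2 3′ end in 3 of 4, while K562 nascent-strand rows are empty over the MYC start and at LMNB2.

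MCM4, which encodes a helicase subunit, was the locus with the fewest peaks, and no nascent-strand peak of any list lay at its promoter side. Among the HCT116 lists only the SIRT1-depleted one had a nascent-strand peak, of 70 reads over 1800 bp inside the gene (chr8:48882001-48883800, percentile 25.9). The nearest peak to the 5′ end was 9.24 kb away in the SIRT1-depleted list, 13.0 kb in the T530A rescue, 30.2 kb after aphidicolin and 13.2 kb in the wild-type rescue. A peak in at most 1 of 4 HCT116 lists occurred in 28.5% of windows as wide as this locus. The depleted list also held the most reads in peaks, 20025631 against 14971380 in the wild-type rescue, and its 70 reads lie below the 138 reads of the median peak of the wild-type rescue list. Whether depth accounts for this peak was not tested.

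All 3 K562 nascent-strand lists had a peak at MCM4, as 38.8% of windows did. In early S it had 54 reads (chr8:48886801-48888800, percentile 41.5), and in middle S a peak of 41 reads began at the same base (chr8:48886801-48887600, percentile 10.1). The strong peak belonged to the edge of the locus. One region, chr8:48899801-48906200, held 371 reads in middle S (percentile 97.6) and 251 reads in late S (percentile 97.5), but only 919 bp of its 6400 bp lay within 10 kb of the gene. No early S peak overlapped the locus there.

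At the gene start itself MCM4 had H4K16ac alone. An H4K16ac peak of score 32 covered the MCM4 5′ end (chr8:48871841-48873111, percentile 44.0), with a fold enrichment of 3.20 in the authors' list. The place that most lists shared lay inside the gene, chr8:48878601-48878999, 5.84 to 6.24 kb from the start, in 6 lists and in no nascent-strand list. They were HCT116 pSIRT1 and H4K16ac, K562 pSIRT1 in unfractionated cells and late S, and K562 pMCM2 in G1 and early S. The top pSIRT1 peak in HCT116 had 61 reads (percentile 60.2) and the pMCM2 peak had 54 reads (percentile 57.1). All 3 HCT116 ChIP lists had a peak, as did 47.1% of windows. K562 pSIRT1 had a peak in 2 of 6 lists, with 25 reads in unfractionated cells and 68 in late S, and 51.7% of windows had a peak in 2 lists or fewer. K562 pMCM2 had a peak in 3 of 5 lists, against 36.4% of windows with at least 3, with 23 reads in G1, 11 in early S and 108 in G2. The G2 peak was again the edge one, at 26.8 to 31.2 kb from the start (percentile 92.4).

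TOP1 had nascent-strand peaks in every list, and none of them covered its 5′ end. The nearest nascent-strand peak to the TOP1 start was 13.5 kb away in the SIRT1-depleted list, 6.26 kb in the T530A rescue, 5.54 kb after aphidicolin and 6.86 kb in the wild-type rescue. In K562 the nearest was 5.54 kb away for early S, 4.46 kb for middle S and 15.1 kb for late S. Only H4K16ac covered the start, with a peak of score 35 (chr20:39655635-39658215, percentile 49.6). The locus is wide, and 71.2% of windows of its width had a peak in all 4 HCT116 nascent-strand lists, 67.8% in all 3 K562 ones and 72.2% in all 3 HCT116 ChIP lists.

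The top nascent-strand peak at TOP1 had no fixed place. In the SIRT1-depleted list it had 145 reads and lay past the gene's 3′ end (chr20:39762001-39765600, percentile 64.5). In the T530A rescue the single peak had 229 reads and lay upstream of the gene (chr20:39645001-39651200, percentile 85.3). After aphidicolin the top peak had 289 reads and lay upstream as well (chr20:39643601-39650800, percentile 92.4). The wild-type rescue had 205 reads past the 3′ end (chr20:39760801-39765600, percentile 71.2) and a second peak of 151 reads upstream. The SIRT1-depleted list had no peak within the locus upstream of the gene, but its nearest upstream peak ended 13.5 kb from the 5′ end, just outside the 10 kb flank and overlapping the start of the aphidicolin peak, so its absence depends on the width of the flank. In K562 the top peak had 63 reads inside the gene in early S (percentile 54.4), 174 reads upstream of the gene in middle S (chr20:39648001-39653000, percentile 89.6) and 96 reads inside the gene in late S (percentile 78.1).

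One narrow place inside TOP1, the widest of the 4 loci, was shared more widely than any other at these loci. How often places elsewhere in the genome lie inside as many lists was not computed, for this place or for the shared places at the other loci. The 399 bp at chr20:39722001-39722399, 64.5 to 64.9 kb from the 5′ end, lay inside a peak of 14 of 21 lists, including 3 of 4 HCT116 nascent-strand lists, all 3 K562 nascent-strand lists and all 3 HCT116 ChIP lists. In the T530A rescue no peak overlapped it. H4K16ac had its highest score of the TOP1 locus there, 141 (percentile 94.7), with a fold enrichment of 6.37 in the authors' list. The nascent-strand peaks over this place were weak in their lists, with 68 reads in the depleted list (percentile 24.2), 77 after aphidicolin (percentile 31.5), 132 in the wild-type rescue (percentile 47.0), and 38, 50 and 32 reads in K562 early, middle and late S (percentiles 12.5, 23.6 and 3.36). A place upstream of the gene, chr20:39648401-39648800, lay inside a peak of 12 lists, among them 5 of the 6 K562 pSIRT1 lists.

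HCT116 pMCM2 had 612 reads in 9 peaks at TOP1, the most of the 4 loci, of which TOP1 is the widest. HCT116 pSIRT1 had 216 reads in 3 peaks there, fewer than at LMNB2 (906) and MYC (418). K562 pSIRT1 had a peak in 5 of 6 lists, with 98 reads in unfractionated cells, 85 in G1, 31 in early S and 269 in late S, and none in middle S, and 52.7% of windows had a peak in at least 5. K562 pMCM2 had a peak in all 5 lists, as 34.4% of windows did, with 28 reads for G1, 34 for early S, 52 for middle S, 21 for late S and 93 for G2. In 4 of those 5 lists, all but late S, a pMCM2 peak covered 97.3 to 97.5 kb, just beyond the gene's 3′ end.

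**Figure D3:**
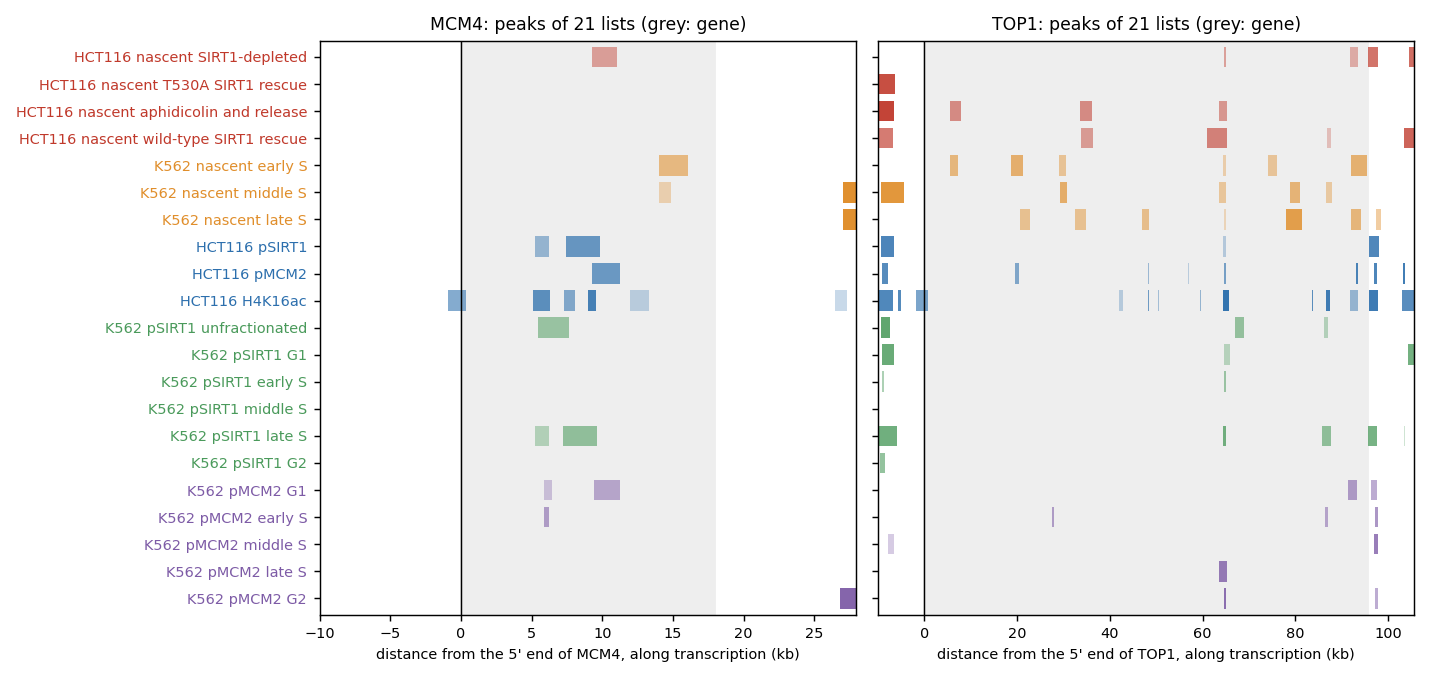
Peaks of the 21 lists at MCM4 (left) and TOP1 (right), each bar 1 peak at its distance in kb from the gene's 5′ end along transcription, with the gene in grey and darker bars for higher percentiles in the list. Only H4K16ac crosses either gene start, the strong K562 nascent-strand peak at MCM4 sits at the right edge of the locus, and 14 lists share 1 narrow place inside TOP1.

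The HCT116 comparison asks how the SIRT1 clones and aphidicolin release differ from the wild-type rescue at these loci. LMNB2 was higher in all 3 lists set against the wild-type rescue, TOP1 was lower in both the depleted and the T530A list, and MYC stayed within 2-fold. Reads at each locus were scaled to the reads in all peaks of their list, and intervals are exact 95% binomial ones that cover counting error only. The 3 comparisons share the wild-type rescue library, so its own deviation enters all of them.

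At LMNB2, reads in peaks summed to 1544 in the SIRT1-depleted list, 776 in the T530A rescue and 602 after aphidicolin, against 424 in the wild-type rescue. Per 1000000 reads in peaks these were 77.1, 49.9 and 43.9 in the same order, against 28.3 in the wild-type rescue. The log2 ratio to the wild-type rescue was 1.44 (1.29 to 1.60) in the depleted list, which is past 2-fold. It was 0.82 (0.65 to 0.99) in the T530A rescue and 0.63 (0.45 to 0.82) after aphidicolin, both under 2-fold. With the higher 50% of peaks of each list the aphidicolin ratio was 1.16, past 2-fold. Scaled to reads on chromosome 19 alone, the ratio of the depleted list was 0.95, no longer past 2-fold. The difference lay in peak length more than in reads per kb of peak. The LMNB2 peaks summed to 29.4 kb in the depleted list, 17.4 kb in the T530A rescue and 14.2 kb after aphidicolin, against 10.2 kb in the wild-type rescue. Reads per kb were 52.5, 44.6 and 42.4, against 41.6 in the wild-type rescue. Unlike the ratios, reads per kb are not scaled to the reads in peaks, which were 20025631 in the depleted list and 14971380 in the wild-type rescue.

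At TOP1, reads summed to 404 in the SIRT1-depleted list, 229 in the T530A rescue and 540 after aphidicolin, against 650 in the wild-type rescue. The log2 ratio was -1.11 (-1.29 to -0.92) in the depleted list and -1.56 (-1.78 to -1.34) in the T530A rescue, both past 2-fold, and -0.14 (-0.31 to 0.027) after aphidicolin. The depleted ratio was -0.81 when scaled by the median window, and with the higher 50% of peaks of each list the ratios were -0.87 in the depleted list and -0.72 in the T530A rescue, under 2-fold in each case. Peak length again moved with it, at 7.80 kb in the depleted list, 6.2 kb in the T530A rescue and 14.0 kb after aphidicolin, against 17.0 kb in the wild-type rescue. Reads per kb, again not scaled to the reads in peaks, were 51.8, 36.9 and 38.6, against 38.2 in the wild-type rescue.

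At MYC, reads summed to 920 in the SIRT1-depleted list, 1069 in the T530A rescue and 987 after aphidicolin, against 752 in the wild-type rescue. Each sum included the peak at the downstream edge of the locus. The log2 ratio was -0.13 (-0.27 to 0.012) in the depleted list, 0.45 (0.32 to 0.59) in the T530A rescue and 0.52 (0.38 to 0.66) after aphidicolin. MCM4 had 70 reads in the SIRT1-depleted list and no peak in the T530A rescue, after aphidicolin or in the wild-type rescue, so no ratio was formed.

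The genome gives the scale for these ratios. Past 2-fold were 2 of 3 loci in the depleted list against the wild-type rescue, with 35.1% of 50 kb windows past 2-fold. For the T530A rescue it was 1 of 3 loci, with 23.9% of windows, and after aphidicolin 0 of 3, with 27.1% of windows. The median window had a log2 ratio of -0.30 in the depleted list, -0.12 in the T530A rescue and 0.015 after aphidicolin, so the LMNB2 values stood above and the TOP1 values below the median window in all 3 comparisons. Among windows, LMNB2 in the depleted list ranked at percentile 94.1 and TOP1 in the T530A rescue at percentile 5.87. Ratios of the size seen at LMNB2 and TOP1 were thus found in many other windows. The windows were 50 kb for every locus, while the TOP1 locus spans 116 kb and the MYC locus 25.4 kb, so their percentiles are not on a like scale.

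**Figure D4:**
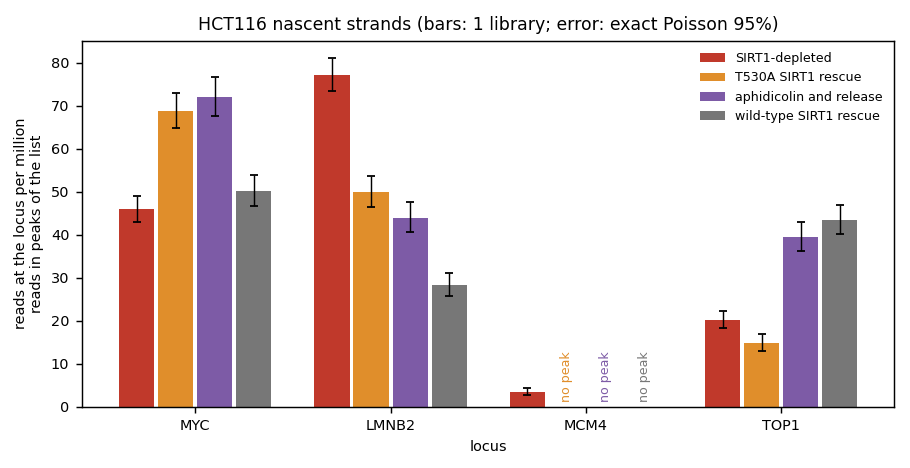
HCT116 nascent-strand reads at each locus per 1000000 reads in peaks of the list, 1 bar for each list in the order SIRT1-depleted, T530A rescue, aphidicolin and release, wild-type rescue, with exact 95% Poisson intervals for counting error. At LMNB2 the bars run from 77.1 to 28.3, at TOP1 the depleted and T530A bars (20.2 and 14.7) lie below the wild-type rescue (43.4), and at MCM4 the depleted list alone has a peak (3.50).

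Across K562 S phase, nascent-strand reads at MYC were below early S in both later fractions by amounts that depended on how reads were counted, TOP1 stayed within 2-fold, and MCM4 was high in middle and late S through its edge peak. Reads at MYC summed to 203, 160 and 121 in early, middle and late S, and each sum included a peak at the downstream edge of the locus. The log2 ratio to early S was -0.55 (-0.86 to -0.25) for middle S and -0.96 (-1.30 to -0.63) for late S, under 2-fold for both. With reads weighted by the part of each peak inside the locus, the middle S ratio was -1.32 and the late S ratio -0.32. The late S ratio was -1.03 when scaled to the same chromosome and -1.93 with the higher 50% of peaks of each list. TOP1 had 310, 415 and 386 reads in the same fractions, with ratios of 0.21 (-0.0060 to 0.43) and 0.10 (-0.12 to 0.32). MCM4 had 54, 412 and 251 reads, with ratios of 2.72 (2.31 to 3.16) and 2.0 (1.57 to 2.45), the only ones past 2-fold. Past 2-fold were 26.5% of windows in middle S and 27.0% in late S. The MCM4 ratios rest on the peak at chr8:48899801-48906200: with the gene alone the middle S ratio was -0.61, and with reads weighted by the part of each peak inside the locus the late S ratio was -0.80.

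For pMCM2 in K562, summed reads at LMNB2 were highest in G1, where the peaks were longest. Per 1000000 reads in peaks it had 236 for G1, 91.5 for early S, 11.3 for middle S and 22.6 for late S, and no peak for G2. The log2 ratio to G1 was -1.37 (-1.78 to -0.96) for early S, -4.38 (-5.23 to -3.63) for middle S and -3.39 (-4.12 to -2.72) for late S. Among 50 kb windows with reads in both fractions, LMNB2 ranked at percentile 17.0 for early S, 0.112 for middle S and 0.708 for late S. The early S ratio was -0.90 when scaled by the median window. The LMNB2 peaks summed to 15.4 kb in G1, 5.4 kb in early S and 0.4 kb in each of middle and late S. Reads per kb of peak, not scaled between lists, were 8.96 for G1, 14.8 for early S, 40.0 for middle S and 52.5 for late S. The middle and late S values each rest on 1 peak of 400 bp, with 16 and 21 reads. The weakest peaks of those lists had 11 and 7 reads, so a called peak this short cannot have a low value per kb. The other loci moved less evenly. MYC had a ratio of 0.94 (0.063 to 1.89) for early S, -0.27 (-1.21 to 0.73) for middle S and -2.79 (-3.90 to -1.67) for G2, and with weighted reads the middle S ratio was -1.42. TOP1 had ratios of -0.30 (-1.06 to 0.48) for early S, -0.38 (-1.07 to 0.34) for middle S, -1.08 (-1.97 to -0.22) for late S and -1.15 (-1.77 to -0.48) for G2, of which the last 2 were -0.68 and -0.55 when scaled by the median window. MCM4 had -1.64 (-2.83 to -0.55) in early S and -0.65 (-1.31 to 0.067) in G2, and no peak in middle or late S. The G2 ratio was -2.63 with reads weighted by the part of each peak inside the locus and -1.04 when scaled to the same chromosome.

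Changes past 2-fold against G1 were common for pMCM2, at 39.0% of windows for early S, 43.3% for middle S, 38.3% for late S and 50.7% for G2. The 4 loci gave 12 ratios, 7 of them past 2-fold, all 7 lower than in G1. The median window was lower than in G1 in every fraction too, with log2 ratios between -0.60 and -0.30. Several of these sums are small, and no more than 43 reads stood behind any MYC value and 52 reads behind TOP1 outside G2.

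For pSIRT1 in K562, LMNB2 and TOP1 were both lower in early S and close to G1 in late S. LMNB2 had 99.8 reads per 1000000 reads in peaks in G1, 25.9 in early S and 105 in late S. Its log2 ratio to G1 was -1.95 (-2.26 to -1.65) in early S and 0.076 (-0.11 to 0.26) in late S. TOP1 had 27.4 per 1000000 in G1, 6.26 in early S and 24.3 in late S, with ratios of -2.13 (-2.77 to -1.52) and -0.17 (-0.53 to 0.20). For TOP1 without its flanks, which hold most of its pSIRT1 reads in G1, the ratios were -0.39 and 1.15. Past 2-fold in either direction were 53.1% of windows in early S and 36.5% in late S. The median early S window had a log2 ratio of -0.43, and LMNB2 and TOP1 ranked at percentiles 21.8 and 19.5 of the windows. The early S list covers 23.1 Mb, against 172 Mb in G1, and the part of this in the low early S sums was not tested. MYC and MCM4 had a pSIRT1 peak in late S and none in G1 or early S.

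**Figure D5:**
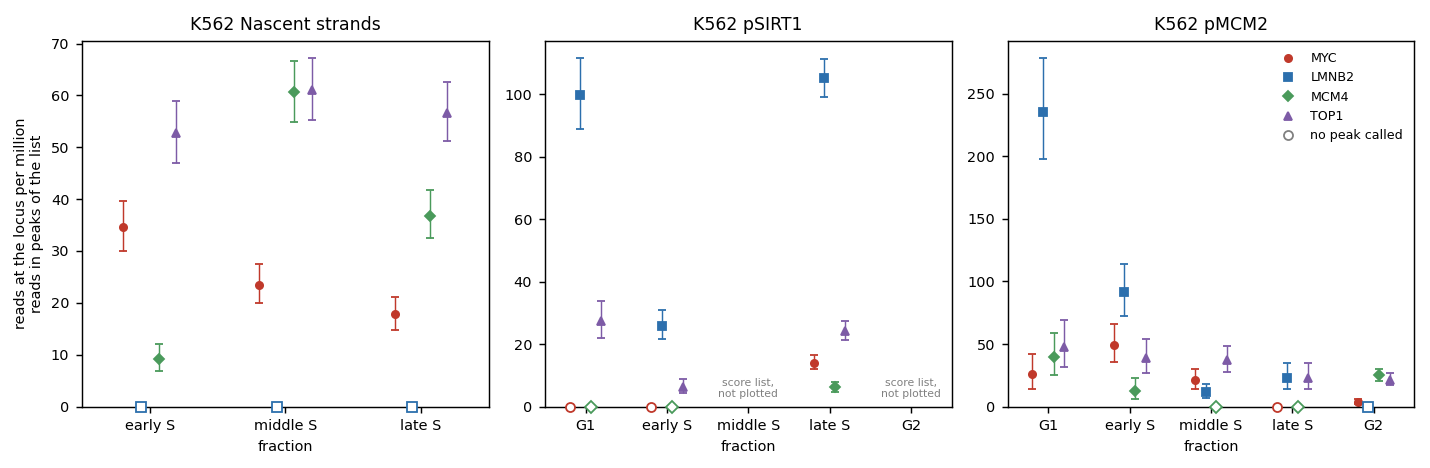
Reads at each locus per 1000000 reads in peaks of the list for K562 nascent strands (left), pSIRT1 (middle) and pMCM2 (right) by fraction, with exact 95% Poisson intervals for counting error and open symbols where no peak was called. LMNB2 has its highest pMCM2 value in G1 (236) and its highest pSIRT1 values in G1 (99.8) and late S (105), and no nascent-strand peak in any fraction.

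Between cell lines, pSIRT1 at 3 loci differed by less than 2-fold, and MYC had a peak in HCT116 and none in unfractionated K562. The log2 ratio of HCT116 to unfractionated K562 was 0.41 (0.22 to 0.61) at LMNB2, 0.70 (0.050 to 1.39) at MCM4 and -0.12 (-0.47 to 0.24) at TOP1, with 41.9% of windows past 2-fold. Without the flanks the TOP1 ratio was -2.14, and with the higher 50% of peaks it was 0.54. The MCM4 ratio was -0.040 when scaled to the same chromosome. At MYC, HCT116 had 418 reads. The nearest peak of unfractionated K562 lay 10.3 kb from the MYC 3′ end, just outside the locus, and K562 late S had 156 reads at MYC. Nascent strands of the wild-type rescue set against K562 at MYC gave log2 ratios of 0.54 (0.31 to 0.77) to early S, 1.09 (0.85 to 1.35) to middle S and 1.5 (1.22 to 1.79) to late S. TOP1 gave -0.28 (-0.48 to -0.082), -0.49 (-0.67 to -0.31) and -0.38 (-0.57 to -0.20) against the same 3 fractions. Scaled to reads on the same chromosome, the MYC ratio was 0.049 to early S and 0.55 to middle S. The TOP1 ratio was 0.086 to early S and 0.69 to late S with the higher 50% of peaks, and -1.43 to early S and -1.34 to late S with the gene alone. LMNB2 had a peak in the wild-type rescue alone and MCM4 in K562 alone. Past 2-fold were 54.2% of windows against early S, 52.5% against middle S and 54.2% against late S and ratios of this size were common between the lines. The cell lines also differ in copy number, whose part was not tested.

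Nascent-strand peaks at the 4 loci in HCT116 overlapped pSIRT1, pMCM2 and H4K16ac peaks in at least 30 of 39 cases, and those in K562 overlapped pSIRT1 in 11 of 27 and pMCM2 in 14 of 27. The HCT116 ChIP lists are from untreated wild-type cells, and the 39 nascent-strand peaks pool 4 lists of other cells. These were 13 peaks of the SIRT1-depleted list, 7 of the T530A rescue, 9 after aphidicolin and 10 of the wild-type rescue. An overlap therefore does not show both signals in the same cells. In HCT116, 31 of 39 nascent-strand peaks overlapped a pSIRT1 peak, against 56.4% of all HCT116 nascent-strand peaks. LMNB2 gave 13 of 13, MYC 8 of 11, MCM4 1 of 1 and TOP1 9 of 14. The 1 Mb around LMNB2 held 149 HCT116 pSIRT1 peaks, at percentile 98.8 of 1 Mb windows. An overlap of 1 bp was enough, so long peaks overlap more often, and peak length was not matched to the genome share. With pMCM2 the overlap was 30 of 39, against 50.4% of all such peaks. H4K16ac overlapped 36 of 39, against 72.2%, and the 3 without it were all at TOP1. In K562, 11 of 27 nascent-strand peaks overlapped a pSIRT1 peak of any of the 6 lists, against 46.3% of all K562 nascent-strand peaks. With pMCM2 of any of the 5 lists it was 14 of 27, against 47.4%. At LMNB2 there was no K562 nascent-strand peak to overlap, so the pSIRT1 and pMCM2 peaks there stood without one. Peaks of different lists at 1 locus often cover the same place and are not independent.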

How the data were processed

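Nascent strands and ChIP DNA of 2 human cell lines were sequenced, with 1 library per group, so samples were not averaged. The authors used build hg19 and the tools MACS and SICER, per the submitters' processing notes, which give no versions. The sources used here do not state the aligner, the thresholds or the filters. For 18 lists the authors deposited a whole-number count per peak, taken as reads and not scaled between libraries. Their peaks lie on a 200 bp grid, apart from HCT116 pSIRT1 peaks, whose ends are 1 bp less. In 2 K562 lists, pSIRT1 in middle S and in G2, the authors deposited decimal scores in place of counts. The H4K16ac list looks like output of MACS, and the authors deposited in it a score and a fold enrichment, both used here. That score was within 1 of 10 times the deposited −log10 q in all 230956 rows, so ranks by score are ranks by q. The deposited columns of −log10 p and −log10 q were not used directly. Units were inferred from values and layout, since the lists have no column names.

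A peak belonged to a locus if they shared at least 1 bp. Windows as wide as each locus, on chromosomes 1 to 22 and X and with a peak of any list, gave the share with a peak in as many lists. Reads of the peaks at a locus were divided by the reads in all peaks of the list, and log2 ratios were given exact (Clopper-Pearson) 95% intervals. Ratios past 2-fold were set beside 50 kb windows with reads in both lists, whatever the width of the locus. Intervals cover counting error only, PCR copies are not independent molecules, and the depth of the libraries is unknown. A set of 15 pairs of lists was compared. On simulated data, made from the wild-type rescue list by a 4-fold change planted in 200 of 35295 windows, 195 (97.5%) were recovered past 2-fold. Both simulated lists kept the same peak boundaries, so this recovery does not cover differences in peak calling or peak length. The top peak of each locus and list is named, and all 4 loci are named throughout. The members and lists were chosen with earlier results of these data known. Alternatives were the gene without flanks, the higher 50% of peaks, 50% overlap, rank by reads per kb or within the chromosome, 2 other scalings, and weighting by the part of a peak inside the locus. Other genes with mapped origins, and the hg19 positions of TIMM13 and PRKDC, were not analysed here, since no hg19 annotation was used. Promoter sequences are from RefSeq GRCh38.p14. Python 3.11.15, numpy 2.4.6, pandas 2.3.3, scipy 1.17.1 and matplotlib 3.10.9 were used.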

Additional observations from a re-analysis of the deposited data

Results flagged for a closer look

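At LMNB2 the ratio of summed reads of the 2 antibodies differed in sign between lists. The log2 ratio of pSIRT1 to pMCM2, each scaled to the reads in all peaks of its list, was 1.49 (1.32 to 1.65) in HCT116, -1.24 (-1.53 to -0.94) in K562 G1, -1.82 (-2.24 to -1.40) in K562 early S and 2.22 (1.60 to 2.92) in K562 late S. HCT116 thus stood opposite to K562 G1 and K562 early S, and K562 G1 and early S stood opposite to K562 late S. The reads behind these values were 906 for pSIRT1 and 479 for pMCM2 in HCT116, 310 and 138 in K562 G1, 128 and 80 in early S, and 1166 and 21 in late S. The ratio sets sums over separately called peaks whose extent differed. The pSIRT1 peaks spanned 26.0 kb and the pMCM2 peaks 6.0 kb in HCT116, 29.0 and 15.4 kb in K562 G1, 3.0 and 5.4 kb in early S, and 29.8 and 0.4 kb in late S. At TOP1 the same ratio was -0.94 in HCT116, -0.81 in K562 G1, -2.63 in early S and 0.11 in late S. In HCT116 it was 0.94 at MYC and 1.41 at MCM4, so the sign at LMNB2 in HCT116 was shared with MYC and MCM4 but not with TOP1. Each value is 1 library per antibody, the intervals cover counting error only, and the differences were not tested.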

How the results depend on the processing

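Each group had 1 library, so no list could be left out, and no paired analysis was possible because each group had 1 library. The K562 nascent-strand ratios at MCM4 reversed: to -0.61 in middle S with the gene alone and to -0.80 in late S with weighted reads, since both rest on a peak at the edge of the locus. Ratios past 2-fold numbered 2 for K562 nascent strands, against 3 when scaled to the same chromosome, 0 with the gene alone, 1 with weighted reads (MYC in middle S, -1.32, with MCM4 at 0.59 in middle S) and 1 with the higher 50% of peaks (MYC in late S, -1.93). For K562 pMCM2 there were 7, against 4 with the gene alone and 2 with the higher 50%. For K562 pSIRT1 there were 2, against 1 with the higher 50%. Between HCT116 and K562 there were 2, against 1 when scaled to the same chromosome, and the TOP1 ratio of the wild-type rescue to K562 late S turned from -0.38 to 0.69 with the higher 50% of peaks. For HCT116 nascent strands there were 3, and 2 or 3 under each alternative. With the higher 50% of peaks the 2 were LMNB2 in the depleted list (1.75) and after aphidicolin (1.16), and TOP1 was under 2-fold in the depleted list (-0.87) and the T530A rescue (-0.72). MCM4 had a peak in 12 lists, and in 6 with the higher 50% of peaks. Its 1 HCT116 nascent-strand peak overlapped pSIRT1, but 0 did at 50% of the shorter peak. The median percentile of the top peak was 73.8 (MYC), 80.5 (LMNB2), 47.0 (MCM4) and 83.3 (TOP1) by reads per kb. Within the chromosome it was 84.6, 91.7, 54.3 and 72.5, and with the gene alone 91.2, 93.6, 41.4 and 47.0, in the same order of loci. By reads per kb LMNB2 thus no longer had the highest median. The cause of these other changes was not tested. Few reads limit K562 pMCM2, where several sums at a locus are under 50 reads, and unmeasured copy number and library depth limit every comparison between lists.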
